A study of Mus musculus with 6 samples.

Results

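The baseline transcriptome of wild type (WT) mouse myocardium, the muscle wall of the heart, was described from the 3 WT samples of a series of 6 RNA sequencing samples. The WT mice were 6-week-old C57BL/6 animals with no mutation or treatment named in the labels, and the other 3 samples came from NS-DADm mice of the same age and background, which carry knock-in mutations in the deacetylase activating domains of the nuclear receptor corepressors. The NS-DADm samples were used here only to see whether genes that varied between WT samples also varied there. The samples were chosen by genotype, and every gene and transcript that the deposited tables list for them was used. The labels do not say which chambers were taken, the sex of the mice, or how many mice stand behind a sample. Every spread and p-value below therefore measures only the spread between 3 samples, called WT 1, WT 2 and WT 3, which may be technical.

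Heart muscle contracts without rest and draws nearly all of its ATP from mitochondria, which burn mostly fatty acids. Each beat is set off by calcium released from the sarcoplasmic reticulum through ryanodine receptors, which binds troponin on the thin filament and lets myosin pull on actin. The pump SERCA then returns the calcium, under the control of small inhibitory membrane proteins. Many of these proteins are encoded by small gene families whose members divide the work between heart, skeletal muscle and other tissues, and between atria and ventricles. Others come in several transcript forms from 1 gene.

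Total expected counts were 10768308 in WT 1, 10183792 in WT 2 and 11205221 in WT 3, and 3 counts over a kilobase corresponded to an FPKM (fragments per kilobase of transcript, scaled to library depth) of 0.268 to 0.295. The tables listed 17059 genes in at least 1 of the samples and 14786 in all 3. The log2 expression of 10540 genes correlated at 0.989 to 0.995 between samples (Pearson's r across genes, which are not independent replicates). The pairs that include WT 3 stood further apart, with a chi-square of counts per gene of 8.67 and 9.62 against 3.37 for WT 1 and WT 2. WT 3 also held far more transcripts of atrial muscle than the others, as given below, and results that rest on it are given with and without it.

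Of all genes, 11245 reached an FPKM of at least 1 in every WT sample, 5082 reached 10, 674 reached 100, 68 reached 1000 and 3 reached 10000. The 10 most abundant genes held 17.0%, 17.3% and 16.0% of the summed FPKM in WT 1, 2 and 3, or 16.8% ± 0.73 (SD, n = 3). The 100 most abundant held 41.2% ± 1.0 and the 1000 most abundant 74.3% ± 0.77. Counted in reads and not per length, the 10 leading genes held 13.4% ± 0.26.

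The order of the most abundant genes was led by the contractile apparatus and the oxygen store. Myl2 (gene 17906), the regulatory light chain of ventricular myosin, had an FPKM of 19788 in WT 1, 21253 in WT 2 and 16414 in WT 3. Mb (gene 17189), the oxygen-binding myoglobin, followed with 15676, 15470 and 13476. Actc1 (gene 11464), cardiac actin, had 12137, 10999 and 10476, and these 3 were the only genes above 10000 in every sample. Tpm1 (gene 22003), the tropomyosin that blocks myosin sites on actin at rest, had 9549, 9488 and 9233. Each of these 4 genes was above the next in the order with no overlap between samples. The troponin subunits that bind to it were Tnni3 at 7534 ± 441, Tnnt2 at 7491 ± 426 and Tnnc1 at 4042 ± 228 (mean FPKM ± SD, n = 3), of which the first pair overlapped.

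The remaining genes of the leading 20 made force, fuel or calcium cycling possible, with a few exceptions. Myl3, the essential myosin light chain of the ventricle, had an FPKM of 6678 ± 712. Fabp3, which carries fatty acids through the cytosol, had 5683 ± 542. Myh6, the fast myosin heavy chain, had 5189, 5466 and 5984 in WT 1, 2 and 3, and Slc25a4, which exchanges ATP for ADP across the inner mitochondrial membrane, had 4707, 4527 and 4138. The samples of Myh6 lay above all samples of Slc25a4. The SERCA pump gene Atp2a2 (3800 ± 135) and the gene of its inhibitor phospholamban, Pln (3802 ± 321), had almost the same mean, and their samples overlapped. The glycolytic enzyme gene Gapdh, the ATP synthase subunit Atp5b, the muscle cytochrome oxidase subunit Cox6a2, the respiratory chain subunit Ndufa4 and the small heat shock protein gene Cryab completed the muscle genes. The other entries were the alpha globin gene Hba-a1 (2739 ± 270), a red blood cell gene, and Gm20594 (3204 ± 229), a predicted gene with 1 short model of 334 bases.

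Of the 19 neighbouring pairs in this order, 6 had ranges that did not overlap and 13 overlapped, so the rank of a single gene among the leading 20 was often within the spread of the samples. All 20 stood within the first 22 places in every sample. Of the 20, 17 were lowest in WT 3, while Myh6 and Atp2a2 were highest there. This went along with transcript length: relative to the mean of the other samples, the median log2 level in WT 3 was -0.11 for 690 genes under 1 kb and 0.07 for 3306 genes of 4 kb or more. In WT 1 the same medians were 0.11 and -0.05. The part of this length shift in the order of the leading genes was not tested.

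**Figure D1:**
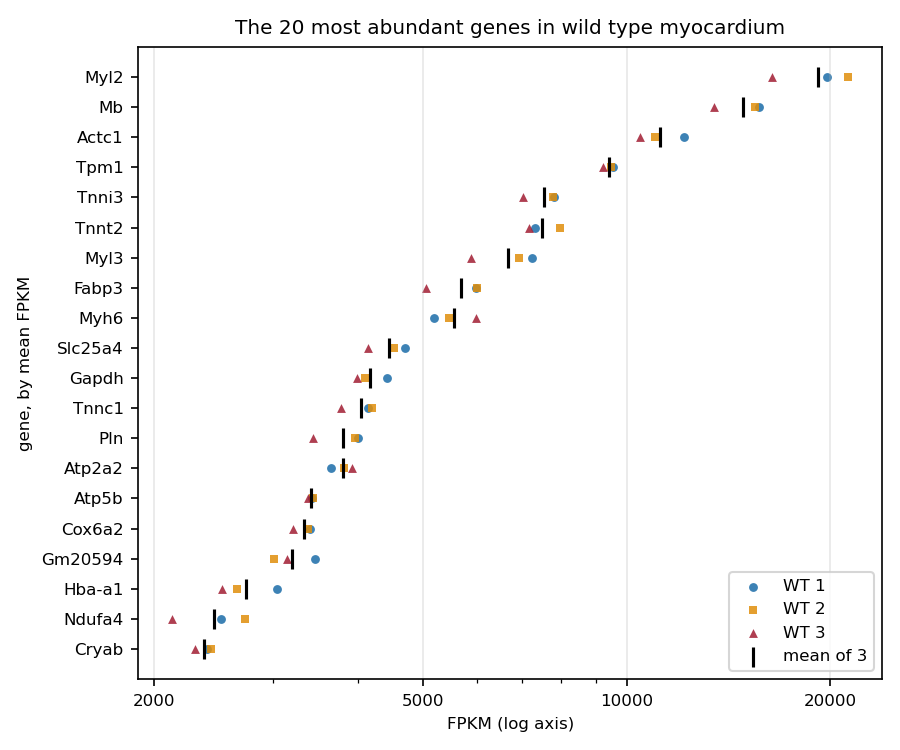
FPKM (log axis) of the 20 genes of highest mean FPKM in the 3 WT samples, 1 symbol per sample, with the mean of the 3 as a bar. Myl2, Mb, Actc1 and Tpm1 stand apart in order at the top, most neighbours below them overlap, and WT 3 is the lowest sample for 17 of the 20.

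By the cell components that the deposited tables attach to each gene, 1376 mitochondrial genes, 8.07% of all, were 48 of the 100 most abundant and held 28.9% ± 0.57 of the FPKM (29.3%, 29.1% and 28.2% in WT 1, 2 and 3). Genes of the mitochondrial inner membrane alone held 13.5% ± 0.32, with 33 of the leading 100. No mitochondrially encoded protein gene was listed, so these are nuclear genes only. Among lists of known pathway members, 30 sarcomere genes held 14.8% ± 0.54 of the FPKM. The 15 ATP synthase genes held 3.89% ± 0.093, the 37 complex I genes 3.75% ± 0.14, the 14 genes of cytochrome oxidase and cytochrome c 3.39% ± 0.13 and the 9 complex III genes 1.45% ± 0.044. Fatty acid oxidation (22 genes) held 2.62% ± 0.081, glycolysis (16 genes) 2.21% ± 0.038, calcium handling (20 genes) 1.98% ± 0.039 and the citrate cycle (18 genes) 1.81% ± 0.012. The ATP buffer and oxygen store, Mb, creatine kinases and adenylate kinases (7 genes), held 3.37% ± 0.16, most of it myoglobin.

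Markers of the labelled tissue were present as labelled, and other cell types were represented at much lower levels. The 12 cardiomyocyte markers held 12.5% ± 0.39 of the FPKM, against 0.399% ± 0.022 for 15 genes of vascular endothelium, 0.247% ± 0.031 for 12 fibroblast genes, 0.0641% ± 0.0019 for 8 pericyte genes and 0.0639% ± 0.0022 for 15 macrophage genes. Blood held more than these: the 12 erythroid genes, globins among them, held 1.33% ± 0.093. The endothelial sum rested on Fabp4 (1255, 1213 and 1232), a fatty acid carrier of capillaries, and the fibroblast sum on Gsn (630, 566 and 737) and the proteoglycan gene Dcn (380, 363 and 439). C1qb, a complement gene of resident macrophages, had 51.4, 50.8 and 50.1. No neutrophil or T cell marker reached an FPKM of 1 in all 3 samples, and of the 6 lung markers only Sftpb was listed, at 0.0700 in WT 2. In such bulk samples, fewer cells of a type and less RNA per cell cannot be told apart.

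Which member of a gene family the myocardium used was measured as each member's share of the family's summed FPKM, in 57 families of 185 genes, of which 179 were listed. In 25 families 1 member held at least 90% in every sample, in 24 the leading member's lowest share over the samples was from 50% to 90%, and in 8 it was less. The leading member was the same in all 3 samples in 55 families. In 44 families a member was listed as the heart or striated muscle form, and that member led in 44 and dominated in 25. The families and these forms were chosen with earlier results of these data known, so that count tests nothing. By role, dominance was seen in 10 of 13 contractile families, 4 of 6 calcium families and 11 of 22 energy families, and in 0 of 5 membrane channel and receptor families, 0 of 3 of protein synthesis and folding, 0 of 2 of globins and 0 of 5 of transcription regulators. The median lowest share of the leading member was 98.0% in contraction, 94.4% in calcium, 91.0% in energy, 79.7% in membrane proteins, 52.1% among the regulators and 48.3% in protein synthesis and folding. The families were chosen by hand, and the difference between roles was not tested.

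Among contractile families, Myh6 held 99.3%, 99.2% and 99.2% of the sarcomeric myosin heavy chain FPKM in WT 1, 2 and 3. Its slower partner Myh7, the main ventricular form of large mammals, had an FPKM of 23.7, 32.1 and 33.2, so Myh6 was 170 to 219 times as abundant. Actc1 held 98.2% ± 0.23 of muscle actin, with the skeletal form Acta1 at 192, 138 and 155 and the smooth muscle form Acta2 at 54.7, 35.9 and 47.9. Tnni3 held all but a trace of troponin I. The slow skeletal form Tnni1, which the fetal heart uses, had an FPKM of 0.290, 0.310 and 0.550. Tnnt2 held 99.8% of troponin T in each sample. Mybpc3, the cardiac myosin-binding protein C, held 99.2% ± 0.14, and Actn2, the Z-disc alpha-actinin, 94.5% ± 0.49.

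The light chains were the contractile families that moved most between samples, through their atrial members. Myl3 held 96.4%, 97.0% and 85.7% of the essential light chains, as the atrial Myl4 had 51.4, 10.6 and 736 in WT 1, 2 and 3. Myl2 held 97.0%, 97.4% and 92.5% of the regulatory light chains, with the atrial Myl7 at 50.9, 9.77 and 796. Without WT 3 the essential light chain family would also pass the 90% line. The myomesins, which cross-link thick filaments at the M-band, were shared: Myom1 had 345, 385 and 374 and Myom2 286, 325 and 322, a ratio of 1.16 to 1.21. The actin-severing cofilins were shared too, with the muscle form Cfl2 at 140, 153 and 130 and the general form Cfl1 at 138, 124 and 128, ranges that overlap.

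Among calcium genes, Atp2a2 held 99.9% of the SERCA pumps in each sample. Ryr2, the release channel, held 99.8%, 99.9% and 99.7% of the ryanodine receptors, and Casq2, which buffers calcium in the store, 99.4%, 98.8% and 98.2% of the calsequestrins. Of the micropeptides that inhibit SERCA, phospholamban (Pln) had 4007, 3966 and 3432 and sarcolipin (Sln), the atrial form, 25.2, 5.13 and 358. Pln was thus 159, 773 and 9.58 times as abundant as Sln in WT 1, 2 and 3.

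The CaM kinase II family, which phosphorylates many of these calcium proteins, gave an order that its transcript models qualify. Camk2d, the main cardiac gene, had an FPKM of 36.8, 36.1 and 34.3, and Camk2a, best known from neurons, came next with 21.8, 22.7 and 21.2, 28.2% ± 0.71 of the family. Camk2g had 16.4, 16.3 and 16.9. The gene tables name 3 Camk2a models. The transcript tables list 2 of them in WT: NM_009792, paired in GENCODE with a coding sequence of 200 residues, with 84.6%, 85.7% and 94.3% of the transcript FPKM, and NM_001286809, of 189 residues, with the rest. The model that codes for the 478-residue kinase, NM_177407, was listed in none of the 3 samples. The Camk2a gene is known to make, besides the kinase, a short anchoring protein called alpha-KAP that lacks the kinase domain, and the Camk2a level here is that of the short models.

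In 11 of 22 energy families 1 member dominated. Ckmt2 held nearly all mitochondrial creatine kinase, at 1642, 1553 and 1515, and Ckm 98.5% ± 0.10 of the cytosolic form. Slc25a4 held 95.5% ± 0.090 of the adenine nucleotide translocators, Slc2a4, the insulin-responsive glucose transporter, 95.5% ± 0.52 of the glucose transporters, and Cpt1b, which admits fatty acids to mitochondria, 94.3% ± 0.43 of its family. Of the paired cytochrome oxidase subunits, the muscle form held 94.2% ± 0.25 for subunit 6a (Cox6a2), 84.8% ± 0.76 for subunit 8 (Cox8b) and 74.4% ± 1.4 for subunit 7a (Cox7a1). Lactate dehydrogenase was led by Ldhb, the heart subunit, with 78.2% ± 1.2 against 21.8% ± 1.2 for Ldha. Fabp3 held 81.7% ± 1.5 of its family, with the endothelial and adipocyte form Fabp4 at 17.8% ± 1.5. Glycogen phosphorylase was split between the muscle form Pygm, at 553, 563 and 548, and the brain form Pygb, at 246, 280 and 282. Hexokinase was split between Hk2 (65.5, 72.8 and 69.7) and Hk1 (55.0, 50.8 and 49.0), which did not overlap.

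No family of membrane proteins passed the 90% line. Cacna1c, the cardiac L-type calcium channel, held 85.8% ± 1.8 of its family, with the skeletal form Cacna1s at 3.82, 3.91 and 3.36. Gja1, the ventricular gap junction protein connexin 43, held 84.5% ± 2.8.

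Protein synthesis carried muscle forms next to the general ones. Rpl3l, the muscle paralog of ribosomal protein L3, had 214, 226 and 206 against 168, 157 and 173 for Rpl3, so it led in every sample with 56.4% ± 2.4. Eef1a2, the elongation factor of muscle and neurons, had 812, 894 and 832 and Eef1a1 702, 685 and 891. Their order turned over in WT 3. Pseudogene copies of these genes could share reads with them, and the authors' handling of such reads is not given in the sources used here. Among small heat shock proteins, Cryab held 42.2% ± 0.99, Hspb7 23.7% ± 0.59 and Hspb6 21.2% ± 1.0.

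Globins and natriuretic peptides stood outside the muscle pattern. The beta globin genes of the C57BL/6 haplotype, Hbb-bs (2567, 2199 and 2209) and Hbb-bt (361, 328 and 293), held nearly all reads, while Hbb-b1 of the other haplotype had 3.90, 0.510 and 0.510. The near-identical alpha globin genes Hba-a1 and Hba-a2 were at 60.4% ± 0.26 and 39.6% ± 0.26, and how reads were divided between them is not stated. Nppa, atrial natriuretic peptide, had 404, 243 and 2728, and Nppb, the B-type peptide, 166, 239 and 149. Their ratio ran from 1.02 in WT 2 to 18.4 in WT 3, so both peptides had nearly the same level in WT 2.

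Regulator families had no dominant member. Gata4, a founding factor of the heart programme, had 38.7, 40.3 and 37.0, and Gata6 30.6, 27.8 and 33.7, with no overlap. Mef2a (56.2, 52.9 and 53.8) exceeded Mef2d (45.5, 45.1 and 43.5), again with no overlap. The fatty acid sensor Ppara held 45.2% ± 0.69 of the PPAR family and Ppard 36.6% ± 0.88. Esrra, an activator of mitochondrial genes, held 71.9% ± 1.8 of the estrogen-related receptors, and the thyroid hormone receptor Thra 86.5% ± 0.73 over Thrb.

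**Figure D2:**
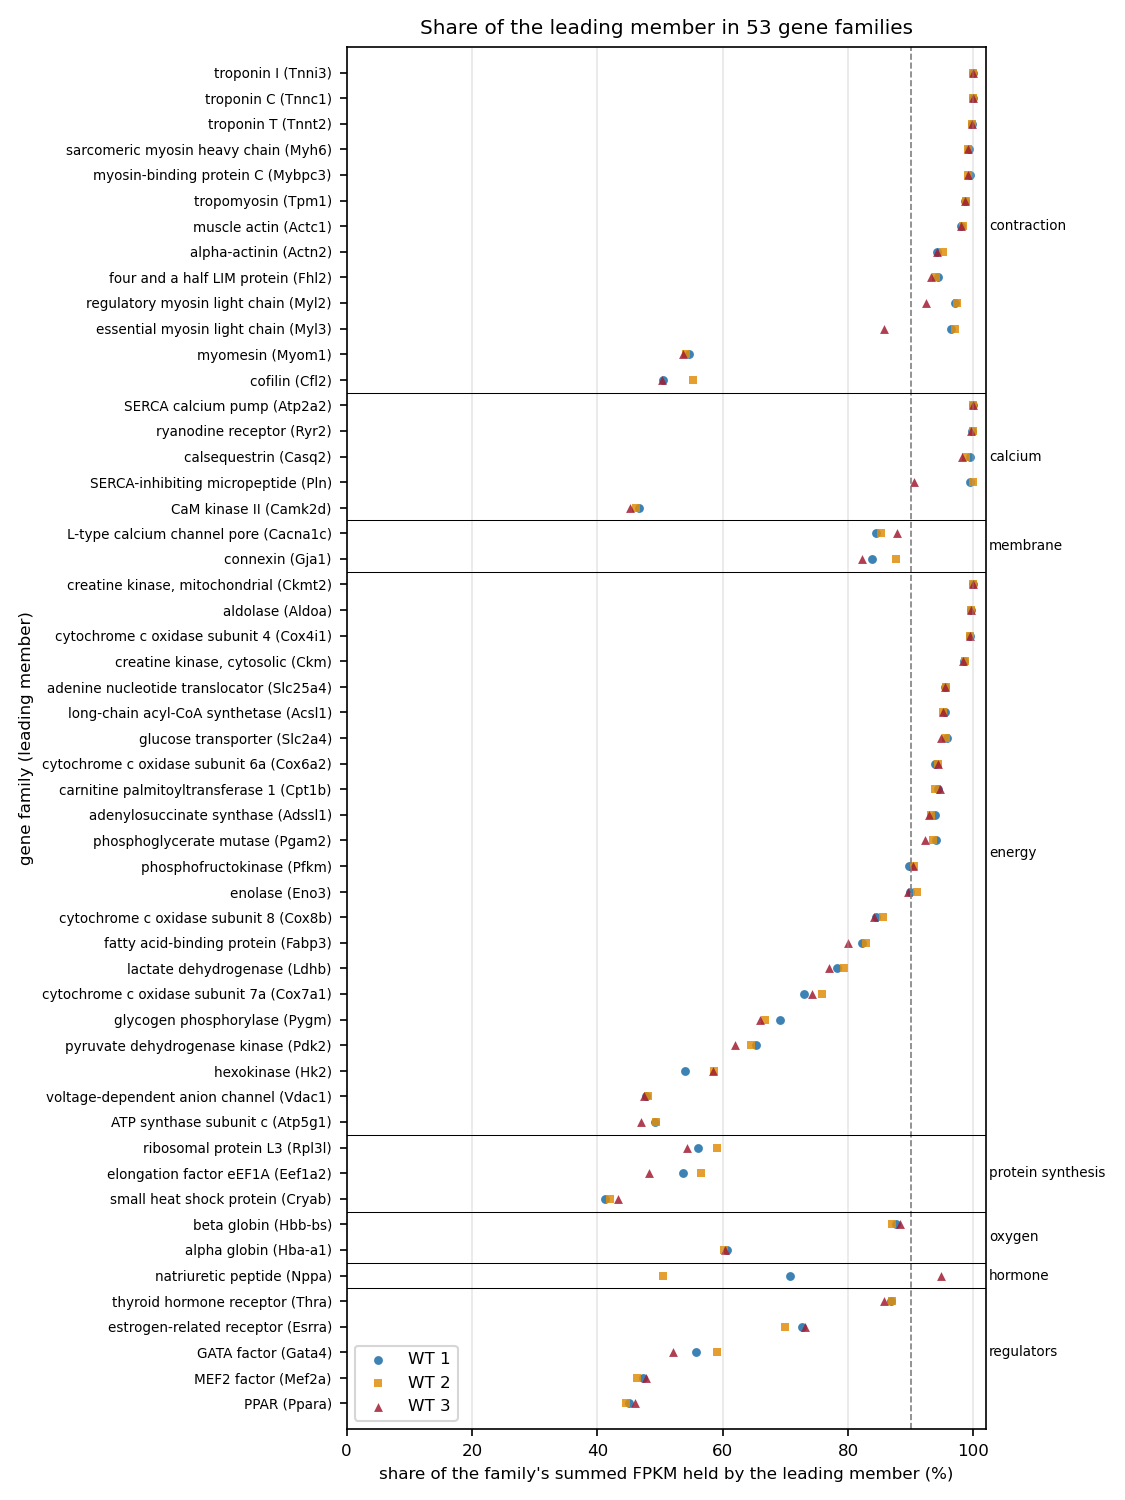
Share of each family's summed FPKM (horizontal axis, %) held by its leading member in WT 1, 2 and 3, for 53 of the 57 gene families sorted by role and share. The dashed line marks the 90% threshold: most contractile and calcium families lie to its right, energy families lie on both sides, regulators lie to its left, and natriuretic peptide has the widest spread, from 50.5% to 94.8%.

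Transcript forms of 1 gene were compared in the same way, for the 1649 genes with an FPKM of at least 10 in every sample and at least 2 listed RefSeq models. A further 3433 such genes had 1 listed model. A single model held at least 90% of the gene's transcript FPKM in every sample in 407 genes (24.7%). The leading model held under 60% in every sample in 265 genes. It was the same in all 3 samples in 1411 genes (85.6%) and differed in 238. Short-read assignment between models that share most of their sequence is uncertain, and the deposited tables give no error for it. In 5 genes the first and second models were tied exactly, and in all 5 the models had equal length: for Mdh1, malate dehydrogenase, both models, of 1958 bases each, had the same FPKM in each sample.

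Of 50 genes known for cardiac or muscle isoforms, 13 had 1 listed model, 36 passed the filter, 8 were dominated by 1 model and 33 had the same leading model in all samples. Ttn, the giant spring of the sarcomere, was represented by NM_028004, of 192 exons and 26886 residues, at 96.7%, 96.8% and 97.1%. The model NM_011652, of 312 exons and 33467 residues, took the rest. The shorter corresponds to the stiff N2B form and the longer to the N2A form of RefSeq. Tpm1 was 99.5% NM_001164248 in each sample, although the tables list 9 models. Atp2a2 was 96.0% ± 0.14 NM_009722, of 998 residues, the SERCA2a form of heart and slow muscle. The ubiquitous SERCA2b form of 1044 residues, NM_001110140, held 0.558%, 0.143% and 1.23%. A further model, NR_027838, held 3.34%, 3.80% and 2.93%. Its RefSeq prefix marks it as noncoding, but GENCODE pairs it with a coding sequence of 1044 residues. Whether its share belongs with SERCA2b is not settled here. Slc8a1, the sodium-calcium exchanger, was 98.9% ± 0.56 NM_011406, and Myom1 was 95.1% ± 1.5 NM_001083934, of 1569 residues. The second Myom1 model, of 1667 residues, held 4.86% ± 1.5. A longer myomesin with an extra elastic segment, EH-myomesin, is known from the embryonic heart.

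Pyruvate kinase gave the clearest exon choice among metabolic genes. Pkm makes the M1 and M2 forms by including 1 of 2 mutually exclusive exons, M1 being the adult muscle form. The M1 model NM_001253883 held 95.4%, 96.5% and 95.0% and the M2 model NM_011099 4.56%, 3.53% and 5.01% in WT 1, 2 and 3. Both models have 11 exons, and the 9th is the one that differs. It has 167 bases in each, on the plus strand, at chr9:59675029-59675195 for M1 and chr9:59675568-59675734 for M2 in GENCODE's GRCm38 annotation. The 2 exons differ at 64 bases, an identity of 61.7%. They are shown because the reads that separate the forms can come only from these bases and their junctions, and capitals mark the bases that differ.
Pkm M1 exon: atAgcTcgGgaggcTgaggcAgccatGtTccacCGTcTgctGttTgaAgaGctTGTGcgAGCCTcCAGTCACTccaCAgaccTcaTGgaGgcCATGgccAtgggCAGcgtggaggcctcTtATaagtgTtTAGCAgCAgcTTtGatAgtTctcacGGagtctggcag
Pkm M2 exon: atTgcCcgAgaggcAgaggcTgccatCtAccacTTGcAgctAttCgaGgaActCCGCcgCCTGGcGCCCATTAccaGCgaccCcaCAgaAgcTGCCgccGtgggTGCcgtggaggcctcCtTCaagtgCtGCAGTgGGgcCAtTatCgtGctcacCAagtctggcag

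In several genes the leading model was a short one. Ldb3, a Z-disc protein also called cypher or ZASP, was 77.1% ± 0.42 NM_001039076, of 327 residues, against 12.3% ± 0.28 for NM_011918, of 723 residues. Pdlim5 was 69.5% ± 1.4 NM_022554, of 239 residues, while the 614-residue model NM_001190852 held 1.28%. The longer forms of both genes carry LIM domains at their ends. Ank2, ankyrin-B, was 93.6% ± 0.41 NM_178655, of 1050 residues, against 4.03% ± 1.3 for a model of 3926. Asph was led by NM_133723, of 207 residues, at 52.6%, 51.3% and 47.2%. The Asph gene makes junctin, a short calcium store protein, as well as a longer enzyme. Dmd was 74.2%, 61.1% and 73.7% NM_001314036, of 617 residues, against 17.0%, 18.7% and 18.3% for the full-length dystrophin model NM_007868, of 3678 residues. By expected counts the short model also led, with 759, 614 and 839 against 534, 577 and 639.

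Other genes were split. Tnnt2 was shared by 9 models, led by NM_001130180 at 37.3%, 51.0% and 36.8%. The second, NM_001130176, held 30.2%, 12.3% and 30.5%, so WT 2 stood apart from the others. Camk2d was 55.5%, 50.7% and 56.7% NM_001025438, of 499 residues, and 38.1%, 41.6% and 30.3% NM_001293664, of 492 residues. Gnas, the stimulatory G protein, was 43.2%, 47.8% and 48.4% its short form of 380 residues, NM_001077510, and 22.2%, 22.5% and 21.7% its long form of 394 residues, NM_201616. A noncoding Gnas model, NR_003258, took 34.3%, 29.5% and 29.6%. Vegfa, the vessel growth factor, had 10 models, and the one with the highest mean held 18%, 22.3% and 19% in WT 1, 2 and 3.

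The 10 most abundant genes led by a model of under 60% in each sample were Tnnt2, Ldhb, Hadhb, Mdh1, Gnas, Ubb, Fxyd1, Psap, Cd36 and Pfkm. Within Ldhb, Hadhb, Mdh1, Ubb, Fxyd1, Cd36 and Pfkm, the models are paired in GENCODE with coding sequences of equal length. For Ldhb, Mdh1 and Ubb all models of the gene are paired with the same GENCODE transcript, so their equal length follows from the pairing. The Cd36 models NM_007643 and NM_001159555 also share a transcript. In Hadhb, Fxyd1 and Pfkm each model has its own, so those splits were not between GENCODE coding sequences of different length. Whether the RefSeq proteins differ in length was not tested. Hadhb, a subunit of the fatty acid oxidation complex, was 54.0%, 59.6% and 53.9% NM_145558. Cd36, the fatty acid receptor, was 31.7%, 28.4% and 30.4% NM_001159556. Ubb, a polyubiquitin gene, was 48.1%, 55.3% and 48.6% NM_011664, and its lead changed hands. Pfkm, muscle phosphofructokinase, was 44.9%, 32.9% and 41.2% NM_021514, while its gene-level FPKM was 432, 433 and 433.

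Model shares were less steady than gene levels. The leading model's share ranged over at least 20 percentage points between samples in 256 of the 1649 genes. Myh6 is split between models that code for 1938 residues each, NM_001164171 at 69.8%, 55.8% and 74.7%, and NM_010856 at 30.2%, 44.2% and 25.3%. Its gene-level CV, the SD over the mean, was 7.27%. Per1, a clock gene, was 100% NM_011065 in WT 1, 29.4% in WT 2 and 99.9% in WT 3. Dcun1d1 went from 0% to 78.8% and 62.5% for its leading model NM_001205361. Among the 212 genes with several models and an FPKM of at least 100, the leading model differed between samples in 14.

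**Figure D3:**
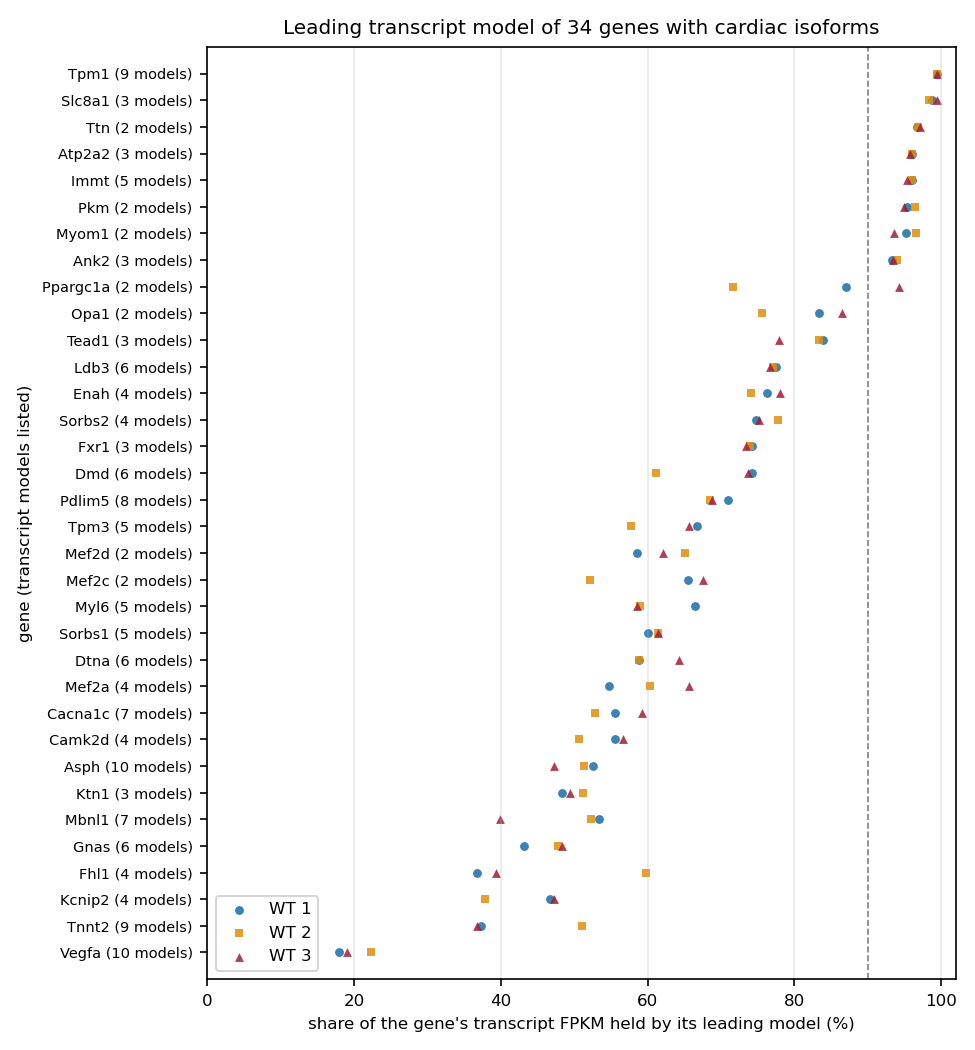
Share of the gene's transcript FPKM (horizontal axis, %) held by its leading RefSeq model in WT 1, 2 and 3, for 34 of the 36 genes known for cardiac or muscle isoforms, with the number of listed models beside each name. Tpm1, Slc8a1, Ttn, Atp2a2, Immt, Pkm, Myom1 and Ank2 lie right of the dashed 90% line in every sample, while Fhl1 and Tnnt2 show WT 2 apart from the others.

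Variation between the WT samples was measured for 10540 genes, those whose mean FPKM reached 1 and whose mean count reached 50. Their median CV was 7.33%. The CV expected from counting error, the inverse square root of the mean count, had a median of 5.56%. That value is an expectation and the 7.33% is estimated from 3 samples, so they are not strictly alike. The median fell with level, from 9.41% for 5179 genes at an FPKM of 1 to 10 to 5.47% for 644 genes at 100 to 1000, and was 7.05% for the 74 genes at 1000 or more. A CV of at least 30% was reached by 188 genes (1.78%), and 71 (0.674%) had a range of at least 1 on the log2(FPKM + 1) scale, about a doubling. At the threshold, 67 of the 188 had a CV of 30% to 35%, and 131 further genes lay between 25% and 30%. The goodness-of-fit test of edgeR, which asks whether a gene varies more than genes of its level do, called 123 of 12505 tested genes (0.984%) at an adjusted p of 0.05, and 536 genes had an unadjusted p under that value. Of the 188, 182 were tested and 99 called.

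The genes that varied were high in 1 sample. WT 3 was the highest sample for 141 of the 188 genes (75.0%) and 104 of the 123 called genes (84.6%), against 37.6% of all 10540. WT 2 was the lowest for 54.8% of the 188 and 60.2% of the 123, against 34.7% of all. The order WT 3 over WT 1 over WT 2 was held by 72 of the 123 called genes (58.5%), against 18.9% of all genes. Without WT 3 the test called 27 genes, of which 17 were among the 123, and the common biological CV was 0.0591 in place of 0.0981. Without WT 2 it called 72 genes, 64 of them among the 123, and without WT 1 it called 92. Without WT 3, 128 genes had a CV of at least 30%, and without WT 2, 299, in sets that then rest on 2 samples.

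Atrial muscle genes led this list. Of the 10 atrial markers, 9 passed the filter on mean level and 8 were tested, and those 8 were called and highest in WT 3. Bmp10 passed that filter only through WT 3, and Clec3a (0, 0.0700 and 0.750) did not pass it. The summed FPKM of the 10 was 588 in WT 1, 322 in WT 2 and 4829 in WT 3, or 0.105%, 0.0582% and 0.908% of the total. Myl7 had 50.9, 9.77 and 796, a CV of 155% (adjusted p = 1.2e-167). Myl4 had 51.4, 10.6 and 736, and Sln 25.2, 5.13 and 358, both with a CV of 153%. In all 3 genes WT 1 stood 4.86 to 5.21 times above WT 2, and WT 3 14.2 to 15.6 times above WT 1. Nppa ranged 11.2-fold, with a CV of 124% (adjusted p = 2.81e-67).

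Further atrial markers were also highest in WT 3. Of the 9 that passed the filter, 7 followed the order WT 3 over WT 1 over WT 2, against 18.9% of all genes. Dkk3, a secreted Wnt modulator, had 3.25, 1.91 and 38.3. Stard10, a lipid transfer protein gene, had 23.5, 21.2 and 85.5. Kcnj3, a channel opened by vagal input, had 26.8, 28.2 and 46.0 (adjusted p = 0.00753), and Gja5, the atrial and conduction system connexin 40, 2.84, 1.70 and 4.95 (adjusted p = 0.0018). Without WT 3 neither of these channels was called in edgeR's test, with adjusted p of 1 and 0.796. Without WT 2 they were not called either, with adjusted p of 0.0613 and 0.593, and without WT 1 Kcnj3 was not called (adjusted p = 0.307). Bmp10, a growth factor of the right atrium, was listed at 0 in WT 1 and WT 2 and at 35.8 in WT 3. It was not tested, because the test's filter asks for a minimum count in every sample. For the same reason no test was made for Mybphl, an atrial myosin-binding protein (3.68, 0.650 and 65.6), or for Tmem163, Cilp2, Fgf12 and Gm14308.

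Ventricular markers moved little in comparison. Of 6, 0 had a CV of at least 30% and 1 was called: Lbh, a transcription regulator, at 329, 276 and 184 (CV 27.9%, adjusted p = 0.0252). Over all genes these shares are 1.78% and 0.984%, so lists this short would hold few such genes in any case. Lbh was not called with any 1 of the samples left out, at adjusted p from 0.0548 to 0.891. The ventricular factor genes Irx4 (17.0, 16.3 and 13.6) and Irx3 (17.3, 16.0 and 16.1) had CVs of 11.3% and 4.47%. Of the 12 cardiomyocyte markers, 0 had a CV of at least 30%, and 10 were lowest in WT 3, against 34.5% of all genes. The share of atrial tissue in each sample was not measured, and its part in the spread was not tested.

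Promoters of Myl7, Nppa and Bmp10 are printed because these atrial genes were high together in WT 3. Each is the 250 bases before the RefSeq start in GRCm38.p6. The windows were searched on both strands for TATAAA, the GATA motif AGATAA, the NKX2-5 motif TNAAGTG, the T-box motif AGGTGT, the MEF2 motif and the CArG box of serum response factor, and capitals mark the matches. Over 32851 promoters of the same length, TATAAA was found in 12.4%, AGATAA in 9.99%, TNAAGTG in 10.1%, AGGTGT in 11.8%, MEF2 in 2.92% and the CArG box in 1.47%. The Myl7 window (chr11:5898783-5899032, minus strand) held a CArG box 61 bases before the start. The Nppa window (chr4:148000472-148000721, plus strand) held TATAAA 9 bases before the start, with an NKX2-5 match and an adjoining T-box match on the other strand at 241 and 248 bases. The Bmp10 window (chr6:87428744-87428993, plus strand) held the GATA motif at 33 and at 219 bases. None of these letters was found in the Myl4 window, and Sln was not matched. The ventricular gene Myl2 was searched too. Its first window held the GATA motif at 211 bases, and its second held TATAAA on the other strand at 216 bases. These motifs were thus not confined to the atrial genes. Such matches describe letters and say nothing of binding.
Myl7 promoter: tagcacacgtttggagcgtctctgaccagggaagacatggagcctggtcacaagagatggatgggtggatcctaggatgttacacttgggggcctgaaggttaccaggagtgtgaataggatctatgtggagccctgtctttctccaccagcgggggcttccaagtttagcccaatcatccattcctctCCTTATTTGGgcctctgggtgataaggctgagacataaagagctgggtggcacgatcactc
Nppa promoter: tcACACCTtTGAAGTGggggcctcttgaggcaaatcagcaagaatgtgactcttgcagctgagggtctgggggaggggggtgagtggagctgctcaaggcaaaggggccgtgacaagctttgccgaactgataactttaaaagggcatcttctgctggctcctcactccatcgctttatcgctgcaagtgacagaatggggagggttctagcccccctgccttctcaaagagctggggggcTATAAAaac
Bmp10 promoter: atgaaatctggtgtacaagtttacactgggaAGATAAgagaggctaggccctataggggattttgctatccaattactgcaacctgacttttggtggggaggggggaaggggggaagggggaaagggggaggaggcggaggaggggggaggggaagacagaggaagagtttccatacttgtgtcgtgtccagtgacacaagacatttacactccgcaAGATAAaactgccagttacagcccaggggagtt

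Genes of fat cells varied too, not in the same order throughout. Cfd, the complement factor adipsin of adipocytes, had 1.53, 1.85 and 51.5, the highest CV of the named called genes at 157% (adjusted p = 1.29e-72). Without WT 3 it was not called (adjusted p = 1). Car3, a carbonic anhydrase of fat and slow muscle, had 15.3, 3.36 and 45.3 (CV 101%), and Cidec, a lipid droplet protein, 2.62, 0.600 and 5.66 (CV 86.0%). Adipoq, the adipocyte hormone adiponectin, had 2.97, 0.510 and 8.02 and was not tested. Over the 9 adipocyte markers the sums were 79.0, 65.2 and 206. Of the 4 that passed the filter, 3 had a CV of at least 30% and 3 were called. Not all members were highest in WT 3: Lep, leptin, had 0.820, 0.0900 and 0.0600, and Adig 1.73, 0.5 and 1.04, both untested.

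The remaining genes of the 20 of highest CV, taken from called genes that passed the FPKM and count minimum and leaving out Gm and Rik models, were also highest in WT 3. Sbk3, a kinase gene, had 4.25, 2.36 and 35.6, and the related Sbk2 4.8, 4.15 and 13.9. Cacna2d2, a calcium channel subunit, had 0.390, 0.230 and 2.50, and Cacna1h, a T-type calcium channel, 1.51, 1.10 and 4.51. Cyp2e1, an oxidase of xenobiotics, had 1.73, 0.730 and 13.8, and Cyp26b1, which clears retinoic acid, 0.800, 1.31 and 3.86. Ahsg, a plasma protein made mainly in liver, had 5.12, 2.03 and 15, beside Alb, serum albumin, at 0.880, 0.25 and 3.86. Alb did not pass the FPKM and count minimum and was not tested, and the same holds for the other genes of the liver list. Plekha7 had a CV of 99.2%, the Wnt inhibitor Sfrp5 95.9%, the prostaglandin receptor Ptgfr 82.9% and the G protein subunit Gng2 77.1%. Of these 20, 18 followed the order WT 3 over WT 1 over WT 2, against 18.9% of all 10540 genes. Some, such as Cacna2d2 and Cfd (counts of 14, 16 and 496), passed the FPKM and count minimum only through WT 3. For such genes a high WT 3 was built into the choice.

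Leaving WT 3 out, 6 of these 20 were still called and 14 were not, while 20 of 20 were called without WT 1 and 19 without WT 2. The 6 were Myl7, Myl4, Sln, Nppa, Car3 and Cidec, which differed between WT 1 and WT 2 as well. Cidec was the one not called without WT 2 (adjusted p = 0.345).

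The same genes were looked at in the 3 NS-DADm samples, which had no part in choosing them. All 20 had a CV of at least 30% there, against 270 of 10729 genes (2.52%). Of 175 genes at 30% or more in WT that passed the filter in both groups, 81 (46.3%) were at 30% or more in NS-DADm. Nppa had 2329, 370 and 4204 in NS-DADm 1, 2 and 3, Myl7 446, 84.3 and 804, and Cfd 30.6, 4.86 and 156. NS-DADm 2 was the lowest sample for 19 of the 20, against 39.3% of the 10540 genes that passed the filter in WT. With NS-DADm 2 left out, 11 of the 20 stayed at 30% or more, so much of this spread came with that sample.

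**Figure D4:**
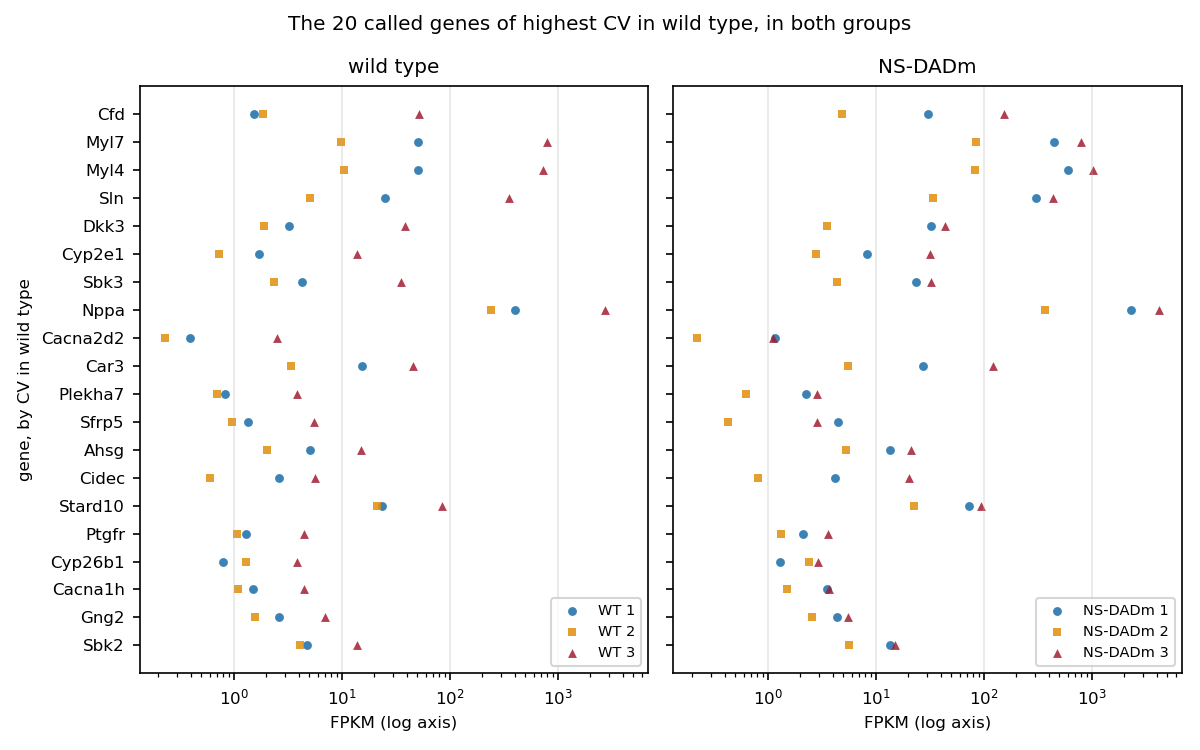
FPKM (log axis) of the 20 called genes of highest CV in WT, in the 3 WT samples (left) and the 3 NS-DADm samples (right), 1 symbol per sample. WT 3 is the highest WT sample for each gene shown and WT 2 is the lowest for 18 of them. NS-DADm 2 is the lowest NS-DADm sample for 19, against 39.3% of the 10540 genes that passed the filter in WT.

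Outside these groups, WT 3 was high for some abundant genes. Gpx3, a secreted peroxidase, had 192, 203 and 467 (CV 54.2%, adjusted p = 3.63e-09). Pam, which amidates peptide hormones, had 176, 180 and 368 (CV 45.4%, adjusted p = 6.74e-06). Herpud1, of protein quality control in the reticulum, had 154, 165 and 273 (adjusted p = 0.0073). All 3 were chosen after their values were seen, as the called genes of mean FPKM of at least 100 beside Myl7, Myl4, Sln, Nppa and Lbh. Without WT 3 none of the 3 was called, each with an adjusted p of 1 in edgeR's test. Herpud1 was not called without WT 1 (adjusted p = 0.326) or without WT 2 (adjusted p = 0.0515) either.

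Of the list of glucocorticoid response genes, 13 of the 14 that passed the filter were highest in WT 3, against 37.6% of all genes, and 3 of 15 tested were called, against 0.984% of all genes tested. Fkbp5, a chaperone partner of the steroid receptor, had 9.64, 6.69 and 17.5 (adjusted p = 3.61e-07), Zbtb16 22.1, 22.6 and 39.8, and Ddit4 24.3, 21.5 and 38.1. Of the clock genes, 2 of 16 tested were called: Cry1, at 3.92, 5.0 and 7.89 (adjusted p = 0.0267), and Nr1d1, at 61.7, 58.5 and 36.3 (adjusted p = 0.0126), which was lowest in WT 3. Without WT 3 none of these 5 genes was called, with Fkbp5 at an adjusted p of 0.438 and the others at 1. Without WT 1, Zbtb16 (0.0612), Cry1 (0.735) and Nr1d1 (0.121) were not called, and without WT 2, Ddit4 (0.351) and Nr1d1 (0.0548), all adjusted p of edgeR's test. The clock output gene Dbp had 150, 127 and 98.6 and was not called (adjusted p = 0.439). Times of tissue collection are not given in the labels.

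Single markers of other cell types were also called, where 0.984% of all genes tested were called. Myl1, an alkali light chain of fast skeletal muscle, had 30.8, 28.3 and 66.7 (adjusted p = 1.9e-07). Vwf, a clotting factor of larger vessels and endocardium, had 10.7, 6.73 and 17.5 (adjusted p = 3.71e-09), the 1 called gene of 15 vascular endothelial markers. Tagln, of smooth muscle, had 11.1, 11.8 and 21.1, Cytl1, of the cartilage-like list, 13.5, 9.84 and 30.8, and Cntn2, of the conduction system, 0.270, 0.310 and 1.65 (adjusted p = 1.28e-12). Of 5 conduction system genes tested, Cntn2 was the 1 called, and its mean FPKM was under the minimum of 1. Tbx3 (3.77, 4.16 and 4.77) and Hcn4 (1.17, 1.63 and 2.62) were not called. Tbx18 (1.17, 1.98 and 1.64), also not called, was highest in WT 2. Tagln was the 1 called gene of 7 smooth muscle genes tested. The more abundant smooth muscle genes Acta2 (54.7, 35.9 and 47.9) and Smtn (42.0, 34.7 and 38.6) were highest in WT 1. Of the 12 genes of the skeletal muscle list 2 were tested, and Myl1 was called. Myh4, Myh2 and Myh1 were at or near 0 in each sample. Comp, another gene of the cartilage-like list, had 1.45, 0.620 and 3.25, and Gpm6a, of mesothelium, 2.11, 0.940 and 3.19. Of the 2 mesothelial genes that passed the filter, 1 was highest and 1 lowest in WT 3. Of the called genes in this paragraph, Vwf alone was still called without WT 3 (adjusted p = 0.000735). Acta2, not called over the 3 samples, was called without WT 3 (adjusted p = 0.00141). Vwf (0.126), Comp (0.394) and Gpm6a (1) were not called without WT 2, nor Tagln without WT 1 (0.0773), all adjusted p of edgeR's test.

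A smaller set ran the other way or differed in WT 2. Col5a3, a collagen chain, had 4.11, 3.20 and 1.88, and Fscn1, an actin bundler, 22.2, 15.2 and 11.1, both lowest in WT 3. Neither was called without WT 3 (adjusted p of 1 and 0.109) or without WT 1 (0.363 and 1) in edgeR's test. The ribosomal protein copies Rpl37rt (49.3, 9.97 and 35) and Gm12338 (45.7, 11.7 and 37.6) were lowest in WT 2, and without WT 2 neither was called (adjusted p = 1). As near-copies of other genes they may share reads, and their values are uncertain. Between WT 1 and WT 2 alone, the called genes included Nppb, at 166 and 239 (adjusted p = 0.00413), and H19, an imprinted noncoding RNA, at 21.2 and 8.46. Nppb was highest in the sample in which Nppa was lowest. These genes were chosen after their values were seen.

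The lists of contractile, calcium and metabolic genes held no called gene. These lists leave out the light chain genes Myl7, Myl4 and Myl1 and the SERCA inhibitor gene Sln, which were called. None of 30 sarcomere genes, 19 calcium handling genes tested, 22 fatty acid oxidation genes, 18 citrate cycle genes, 16 glycolysis genes or the genes listed for complexes I, III and IV and ATP synthase was called or had a CV of at least 30%. Over all genes these shares are 0.984% and 1.78%, so lists of this size would hold few such genes in any case. The median CV was 3.04% for the citrate cycle, 3.44% for fatty acid oxidation, 6.12% for the sarcomere, 6.49% for complex I and 7.84% for complex IV, against 7.33% over all genes and 5.47% for genes at an FPKM of 100 to 1000. Within the sarcomere the widest were Tcap, of the Z-disc, at 2157, 1772 and 1454, and Myh7, which was called between WT 1 and WT 2 when WT 3 was left out (adjusted p = 0.0477 in edgeR's test). Among genes of a mean FPKM of 100 or more the steadiest was Pfkm, at 432, 433 and 433, with a CV of 0.109%, followed by Rpl23 (337, 338 and 336) and the complex I subunit Ndufs1 (293, 295 and 292). The CV that counting alone gives for Pfkm is 0.878%, above the CV measured. Of the immediate early genes, which cells switch on soon after handling or stress, 0 of 22 tested were called and 1 of 18 that passed the filter had a CV of at least 30%, with Jun at 25.9, 16.7 and 21.3 and Fos at 1.41, 0.720 and 1.35. Without WT 3, Jun was called (adjusted p = 0.00346 in edgeR's test).

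**Figure D5:**
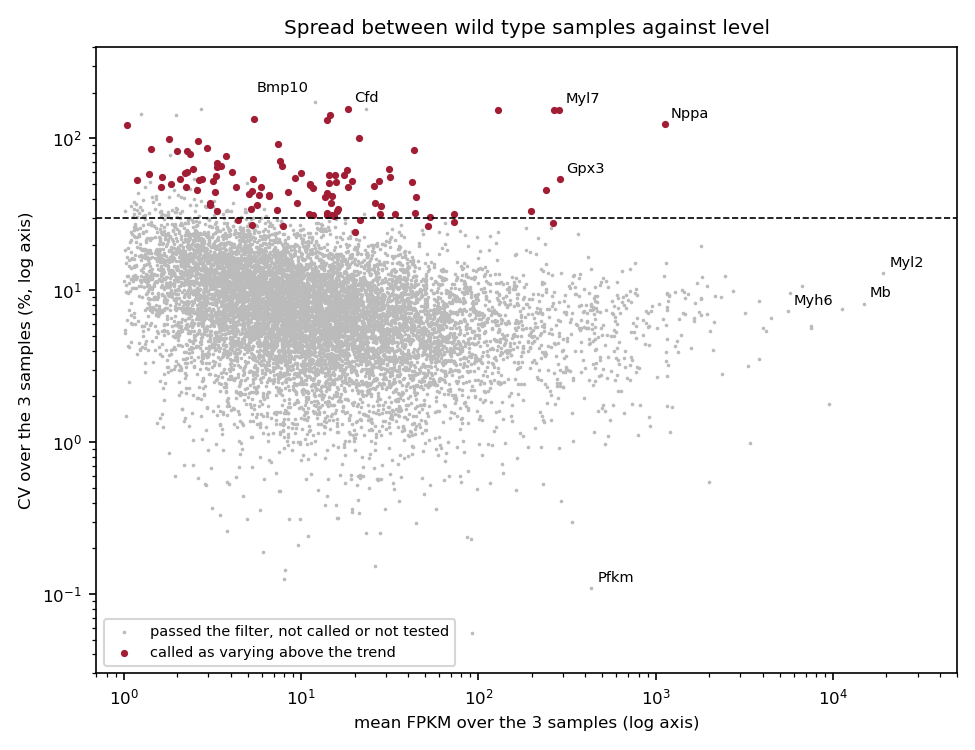
CV over the 3 WT samples (vertical, %, log axis) against mean FPKM (horizontal, log axis) for 10540 genes, with the called genes in red and a dashed line at 30%. Abundant muscle genes such as Myl2, Mb and Myh6 lie between 7.27% and 13%, and Myl7, Nppa and Cfd lie above 100%.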

How the data were processed

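RNA was sequenced from 3 WT and 3 NS-DADm myocardium samples. For each sample the authors deposited a gene and a transcript table with expected counts (estimated counts, per the file headers) and FPKM. HISAT is named in the submitters' processing notes. The sources used here give no estimator, genome build or annotation release. Rows under an FPKM of 0.01 are not listed in the deposited tables and were taken as 0. The 1 row without a symbol, at most 0.00024% of counts, was left out.

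Levels and shares are from FPKM. Expected counts were rounded, filtered with filterByExpr, scaled by TMM and tested with edgeR 4.0.16 (R 4.3.3): an intercept-only glmFit with trended dispersion and a chi-square goodness of fit, with Benjamini-Hochberg adjustment, tested on simulated data. No test between groups was made. DESeq2 1.42.0 gave alternative size factors. Named genes are the 20 most abundant, the leading members of each family and list, the isoform genes passing the filter with 10 split genes, and the 20 called genes of highest CV with a mean FPKM of at least 1 and a mean count of at least 50, without Gm or Rik models. Others are further members of the lists or were chosen after their values were seen, also where the text does not say so. Per1, Dcun1d1, Mybphl, Tmem163, Cilp2, Fgf12 and the steadiest genes are among those chosen by their values. The samples, families, lists and tests were chosen with earlier results of these data known. Coding lengths were taken for 188 of 192 models from GENCODE M21 and promoters from RefSeq (GRCm38.p6). Some genes are not reported here, and the plots leave them out.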

Additional observations from a re-analysis of the deposited data

How the results depend on the processing

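Over the alternatives run, 11334 to 12534 genes were detected in place of 11245, with 11334 to 11402 when 1 WT sample was left out. The share of the 10 leading genes was 13.4% by counts against 16.8% by FPKM. Paralog dominance stayed between 23 and 33 families. A line of 80% in place of 90% gave 634 genes dominated by 1 transcript model in place of 407. With each WT sample left out, the genes varying above the trend numbered 27 to 92 in place of 123, those with a CV of at least 30% 128 to 299 in place of 188, and those with a log2 range of at least 1 9 to 73 in place of 71. A CV of at least 30% was reached by 4519 genes with no minimum of counts or FPKM and by 53 with a mean FPKM of at least 10, sets that hold more or fewer genes by construction, and the log2 range by 167 genes with no minimum. DESeq2 size factors gave the same 123 genes above the trend, and without the low-count filter 182 genes varied above the trend, 116 of them among the 123. Leaving out each NS-DADm sample, an alternative added after the data were seen, 11 to 20 of the 20 named genes kept a CV of at least 30%. In WT, where these genes were chosen, 20 of 20 had a CV of at least 30% by TMM-scaled counts. The NS-DADm samples were not looked at by TMM-scaled counts. Depth limits genes near an FPKM of 0.268 to 0.295 per kilobase. No paired analysis was possible because the values describe 1 group and come from no test between groups.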

Other observations

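Noncoding RNA was listed beside the messenger RNA. Models named as noncoding by RefSeq held 1.02%, 1.05% and 1.08% of the transcript FPKM in WT 1, 2 and 3. Rn18s, the ribosomal RNA of the small subunit, had an FPKM of 862, 948 and 848, a CV of 6.12%. Malat1, a nuclear RNA of most cells, had 209, 236 and 230, and Neat1, the scaffold of paraspeckles, 183, 268 and 264. Mhrt, an antisense RNA of the Myh6 and Myh7 locus, had 52.8, 65.1 and 66.7. Whether strand was used in counting is not given, so reads of Mhrt and of the overlapping myosin gene cannot be told apart. These genes were chosen after their values were seen.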
